A study of Drosophila melanogaster with 3 samples.

Results

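Of the 4336 peaks in the thresholded tap-eGFP peak set of Drosophila melanogaster embryos, 437 lay at divergent promoters. A peak was counted there when its summit, the base of highest signal, was within 500 bp of at least 1 transcription start site (TSS) on the plus strand and at least 1 on the minus strand, of different protein-coding genes. A further 1203 peaks had protein-coding TSSs of 1 strand only within 500 bp, called one-directional promoter peaks here, and 2696 peaks had none. The membership rule used annotation and summit position, and neither signal nor sequence.

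The peaks came from chromatin immunoprecipitation with an antibody against GFP, followed by sequencing, in whole embryos of mixed sex, 6 to 16 h old, from a transgenic line that stably expresses the transcription factor tap with a C-terminal eGFP. There was 1 group of 3 biological replicates and no second genotype, so the comparisons are between classes of sites and between replicates. The antibody recognised the tag on a transgene product, and whole embryos pool all tissues. Each replicate has its own list of 30000 peaks, a list of 30000 peaks was called on the pooled replicates, and the thresholded set was derived from these lists. Read counts were not used here, so the depth behind each peak is unknown.

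tap is a basic helix-loop-helix (bHLH) factor of the neurogenin family, and proteins of this class bind E-boxes, DNA of the form CANNTG. At a divergent promoter, neighbouring genes are transcribed away from each other out of a shared, usually nucleosome-depleted stretch of DNA. In flies such promoters are common at compactly arranged genes used in most cells, and many carry the DNA replication-related element TATCGATA, bound by Dref, or its core CGATA, which is also bound by the insulator protein BEAF-32. No untagged or tag-only embryos entered these comparisons, so binding by tap and recovery of promoter DNA unrelated to tap cannot be told apart here.

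The DNA between the opposing TSSs is shown for the 8 strongest divergent-promoter peaks that had TSSs 60 to 300 bp apart and no annotated exon between them, on the arms 2L, 3L, 3R and X and on chromosome 4, because this stretch is where most of the summits fell. The sequences are in dm6, plus strand, 5' to 3', and run from the base after the minus-strand TSS to the base before the plus-strand TSS. They span chr3R:15229409-15229664 (Art3 and mRpS10), chr2L:8376798-8377034 (CG13390 and CG17294), chr3L:22878985-22879088 (Chro and Ssl1), chr3L:5139396-5139618 (Tcs5 and CHMP2B), chr3R:8650797-8651083 (Mkk4 and SLIRP2), chr3R:15275242-15275521 (Cp190 and CG4338), chr3R:31616161-31616302 (Mnat9 and CG1792) and chr2L:11106646-11106942 (Reps and l(2)gd1). Capitals mark CGATA on either strand (written TATCG when on the minus strand) and CANNTG.
Art3 and mRpS10: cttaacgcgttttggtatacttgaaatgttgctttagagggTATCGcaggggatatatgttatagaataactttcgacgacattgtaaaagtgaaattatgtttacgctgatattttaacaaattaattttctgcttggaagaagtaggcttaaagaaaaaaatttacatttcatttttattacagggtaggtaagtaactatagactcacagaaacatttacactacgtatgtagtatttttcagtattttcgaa
CG13390 and CG17294: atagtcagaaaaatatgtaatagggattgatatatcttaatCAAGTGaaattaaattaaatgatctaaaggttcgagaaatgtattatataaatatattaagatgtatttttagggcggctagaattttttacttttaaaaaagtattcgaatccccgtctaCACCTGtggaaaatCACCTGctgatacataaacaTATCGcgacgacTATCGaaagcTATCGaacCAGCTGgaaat
Chro and Ssl1: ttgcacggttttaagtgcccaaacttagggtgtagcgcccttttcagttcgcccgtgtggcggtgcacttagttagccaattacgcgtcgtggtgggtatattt
Tcs5 and CHMP2B: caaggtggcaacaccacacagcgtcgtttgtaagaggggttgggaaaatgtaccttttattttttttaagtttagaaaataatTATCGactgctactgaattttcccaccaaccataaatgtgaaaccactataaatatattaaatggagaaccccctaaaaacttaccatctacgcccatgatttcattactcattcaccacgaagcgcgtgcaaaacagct
Mkk4 and SLIRP2: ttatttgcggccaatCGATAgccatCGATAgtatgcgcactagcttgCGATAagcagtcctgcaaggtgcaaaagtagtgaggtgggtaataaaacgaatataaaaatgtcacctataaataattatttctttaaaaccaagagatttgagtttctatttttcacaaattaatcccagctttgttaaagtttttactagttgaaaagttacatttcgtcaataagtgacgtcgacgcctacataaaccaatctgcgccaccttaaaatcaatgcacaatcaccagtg
Cp190 and CG4338: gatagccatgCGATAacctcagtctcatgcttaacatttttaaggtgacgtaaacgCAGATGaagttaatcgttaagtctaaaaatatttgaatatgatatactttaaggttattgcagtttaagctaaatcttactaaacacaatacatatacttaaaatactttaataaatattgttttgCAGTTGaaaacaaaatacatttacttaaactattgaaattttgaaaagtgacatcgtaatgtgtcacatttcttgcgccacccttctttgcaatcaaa
Mnat9 and CG1792: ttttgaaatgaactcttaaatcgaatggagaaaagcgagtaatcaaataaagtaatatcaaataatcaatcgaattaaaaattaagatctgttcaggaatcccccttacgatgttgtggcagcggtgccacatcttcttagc
Reps and l(2)gd1: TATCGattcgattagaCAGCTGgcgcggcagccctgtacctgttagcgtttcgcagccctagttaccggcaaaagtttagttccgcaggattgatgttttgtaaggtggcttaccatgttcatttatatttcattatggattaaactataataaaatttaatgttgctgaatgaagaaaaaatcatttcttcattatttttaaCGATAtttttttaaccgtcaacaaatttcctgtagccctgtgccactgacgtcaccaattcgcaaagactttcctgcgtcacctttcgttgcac

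The stretch between CG13390 and CG17294 held 3 CGATA cores and 4 E-boxes, and the stretch between Mkk4 and SLIRP2 held 3 CGATA cores and no E-box. The intervals of Chro and Ssl1 and of Mnat9 and CG1792 held neither sequence. In none of the 8 was the full element TATCGATA present. The G+C content of the 8 stretches was between 28.9% at Cp190 and CG4338 and 51% at Chro and Ssl1. Counted from 1 at the left end, the summit lay at base 135 of the 256 between Art3 and mRpS10, at base 112 of the 223 between Tcs5 and CHMP2B, and at base 139 of the 280 between Cp190 and CG4338, all close to the middle. The Chro and Ssl1 summit was outside its stretch, 82 bp downstream of the Chro TSS.

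Divergent promoters held more tap-eGFP summits than their size gives. They made up 10.1% of the thresholded peaks (437 of 4336, Wilson 95% interval 9.22% to 11%), while the bases that satisfied the rule covered 1.67 Mb, or 1.25% of the chromosome arms, so the share of peaks was 8.06 times the share of bases. Among the 4336 strongest peaks of each replicate, the share was 11.6%, 12.5% and 9.69% in replicates 1, 2 and 3 (11.3% ± 1.46, SD, n = 3). Replicate 3 had the lowest share.

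Since any promoter attracts peaks, the density of summits was compared with that of one-directional promoters, which covered 13.7 Mb. Divergent promoters held 260.9 thresholded summits per Mb, against 88.1 per Mb at one-directional promoters and 32.4 per Mb over whole arms. The ratio between the promoter classes was 2.96. Every divergent base lies near TSSs of different genes on both strands, while a one-directional base can lie near a single TSS. These densities are per base and were not adjusted for the number of promoters nearby. In the strongest peaks of the replicates the divergent density was 301.5, 324.8 and 250.8 per Mb (292.4 ± 37.9, SD, n = 3), against 92.3, 87.2 and 91.5 per Mb at one-directional promoters (90.3 ± 2.73, SD, n = 3). The ratio was 3.27, 3.73 and 2.74 in replicates 1, 2 and 3 (3.24 ± 0.493). It was above 1 in 3 of 3 replicates, and an exact two-sided sign-flip permutation test over the replicates gave p = 0.25, the smallest p that 3 replicates can give. No comparison over these replicates can therefore pass 0.05.

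Bases of divergent promoters are nearer to a TSS than those of one-directional promoters, so the density was also taken at matched distance from the nearest TSS. The ratio of divergent to one-directional density was 1.96 ± 0.417 (SD over 3 replicates) within 50 bp of a TSS, 3.98 ± 1.54 at 51 to 100 bp and 2.97 ± 0.89 at 101 to 200 bp. At 201 to 300 bp it was 1.3 ± 0.249 in the replicates and 0.891 in the thresholded set, and at 301 to 500 bp it was 0.817 ± 0.222 and 0.783. The higher density of divergent promoters was thus seen up to 200 bp from a TSS in every replicate and in the thresholded set. At 201 to 300 bp the replicates stood at 1.43, 1.46 and 1.02, all above 1, but the thresholded set did not. Beyond 300 bp the replicates lay on both sides of 1. Matching on the nearest TSS did not adjust for the number of TSSs nearby, and the part of that number was not tested.

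**Figure D1:**
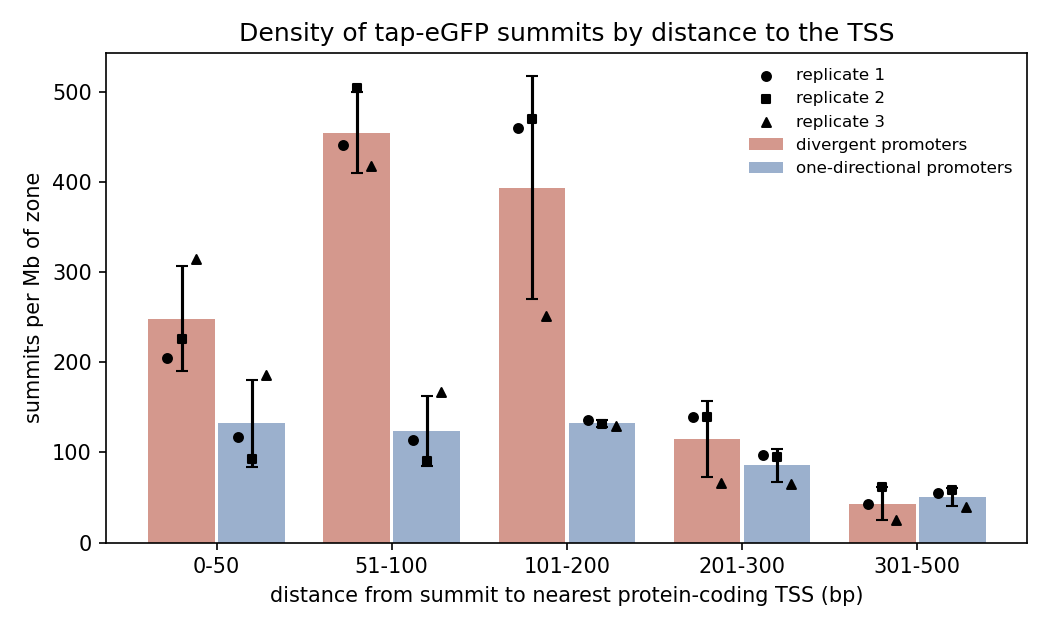
Summits per Mb of zone (y axis) by distance of the summit from the nearest protein-coding TSS in bp (x axis), for divergent and one-directional promoters, among the strongest 4336 peaks of each replicate. Bars are means of 3 replicates, error bars 1 SD and points single replicates; at 51 to 100 bp divergent promoters averaged 454.4 and one-directional promoters 123.8 summits per Mb, and at 301 to 500 bp the values were 42.8 and 50.8.

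The chromosome arms differed. Members numbered 342.6 per Mb of divergent promoter on 3L, 300.1 on 3R, 280.3 on 2L, 196.1 on 2R and 166.5 on X. On X, 43 of 722 peaks were members (5.96%, Wilson 95% interval 4.45% to 7.93%), against 12.1% of 1032 peaks on 3R (10.3% to 14.2%). None of the 18 peaks of chromosome 4 was a member, with an upper Wilson limit of 17.6%.

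The shares were also taken over genes. Of 13945 protein-coding genes, 5141 had a TSS within 1000 bp of an opposing TSS of another gene. A summit within 500 bp of a TSS was found for 1076 of these 5141 genes (20.9%), against 860 of the 8804 genes without such a partner (9.77%), where 13.9% of all protein-coding genes had one. In the replicates the shares were 23.7%, 25.1% and 21.8% with a partner, against 10.1%, 9.64% and 9.87% without. The difference was 13.6 ± 1.75 percentage points (SD, n = 3) and had the same sign in 3 of 3 replicates (exact sign-flip permutation p = 0.25). A single summit between opposing TSSs counts for both genes in these shares.

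The annotation held 2720 divergent pairs of this kind, of which 445 had a thresholded summit within 500 bp of both TSSs (16.4%, Wilson 95% interval 15% to 17.8%). Pairs with a peak of the pooled list numbered 926 (34%). The share differed with the distance between the TSSs. It was 26.1% of 529 pairs at 201 to 300 bp (22.5% to 30%) and 24.6% of 394 pairs at 301 to 400 bp (20.6% to 29.1%), but 12.1% of 354 pairs at 101 to 200 bp (9.14% to 16%) and 16% of 420 pairs at 0 to 100 bp (12.8% to 19.8%). In the strongest peaks of replicates 1, 2 and 3 the share at 201 to 300 bp was 29.3%, 33.3% and 27.4%. At 101 to 200 bp it was 14.4%, 19.2% and 15.5%, so those 2 distance classes did not overlap. The classes at 301 to 400 bp (26.1%, 32% and 20.6%) and at 0 to 100 bp (18.1%, 18.8% and 21.4%) did overlap. In the thresholded set the share was 22.1% of 104 overlapping pairs and 13.7% of 461 pairs at 401 to 600 bp. Pairs more than 600 bp apart leave few bases within 500 bp of both TSSs. Counted within 500 bp of the midpoint instead, their share was 19.2% of 458 pairs rather than 3.06%.

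**Figure D2:**
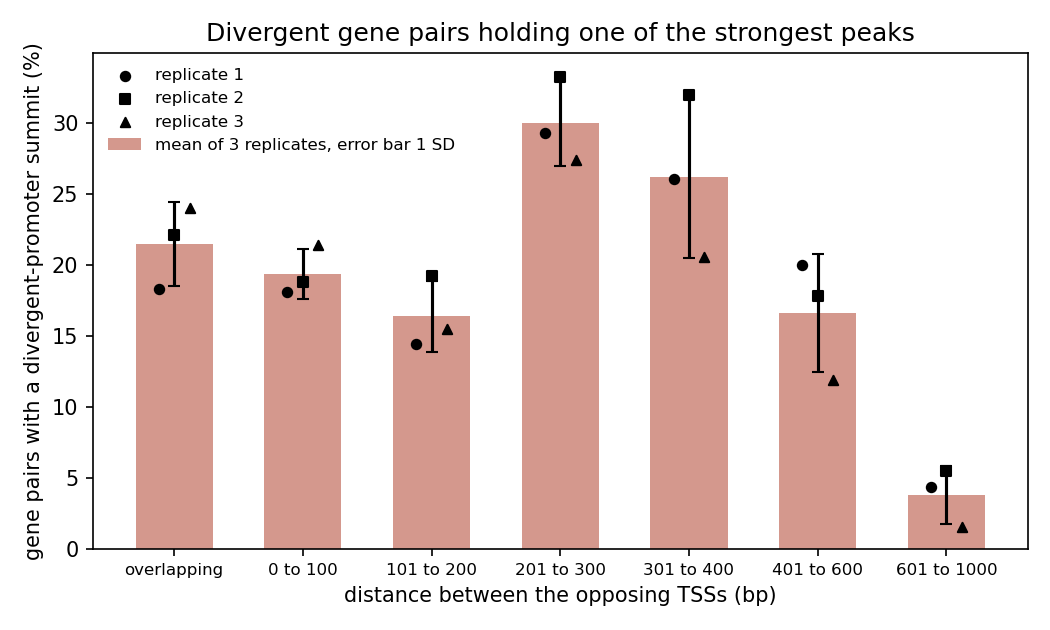
Share of annotated divergent gene pairs with a summit within 500 bp of both TSSs (y axis, percent) by the distance between the TSSs in bp (x axis; in overlapping pairs the plus-strand TSS lies left of the minus-strand TSS), among the strongest peaks of each replicate. Bars are means of 3 replicates, error bars 1 SD and points replicates; the mean was highest at 201 to 300 bp, at 30%, and 16.4% at 101 to 200 bp.

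Within the members, 423 of 437 had their nearest opposing TSSs head to head, that is, with the minus-strand TSS to the left (96.8%), a median of 298 bp apart (quartiles 225 and 402 bp). In the other 14 the transcripts overlapped. Among the head-to-head members, 348 summits lay between the TSSs (82.3%, Wilson 95% interval 78.3% to 85.6%). For members with TSSs up to 500 bp apart the share was 79.9% of 373, while the bases between the TSSs were 37.8% of those that the rule allowed. In replicates 1 and 2 the summit lay between head-to-head TSSs in 81.7% and 82.2% of cases, against 72.7% in replicate 3. The median distance from the summit to the nearer TSS was 102 bp, against 176 bp at one-directional promoter peaks, and to the farther TSS 204 bp. By the rule members have TSSs on both strands within 500 bp, which shortens the distance to the nearer TSS. The part of the rule in this difference was not tested.

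The position differed with the spacing. With TSSs 201 to 300 bp apart, 123 of 134 summits lay between them (91.8%, 85.9% to 95.4%), where 34.2% of the bases that the rule allowed lay between them, a median of 25.8 bp from the midpoint, and the median signal was 356.3. With TSSs 1 to 100 bp apart, 5 of 45 summits lay between them (11.1%, 4.84% to 23.5%, near the 6.38% of allowed bases), a median of 84 bp from the midpoint, so most of those summits lay downstream of one of the TSSs, with a median signal of 294.4. At 101 to 200 bp, 23 of 38 lay between (60.5%, against 18.2% of allowed bases), and at 301 to 500 bp 147 of 156 (94.2%, against 62%), with a median of 74.2 bp from the midpoint. Signal here is the authors' own value per peak, on a scale of the pooled list.

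**Figure D3:**
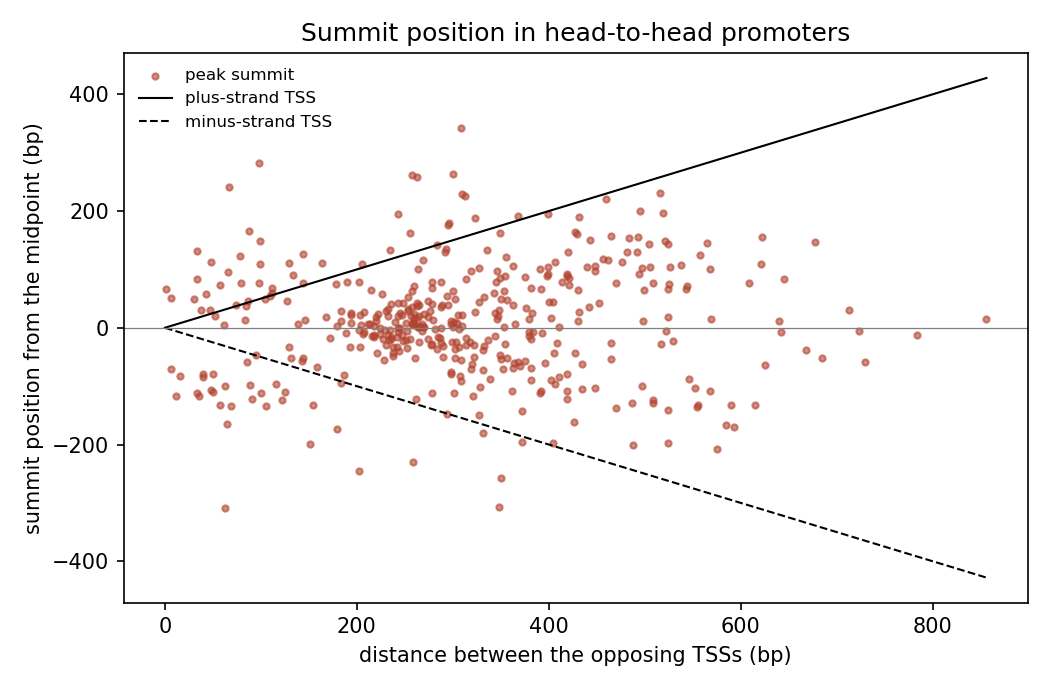
Position of the summit relative to the midpoint of the opposing TSSs in bp (y axis, positive towards the plus-strand gene) against the distance between the TSSs in bp (x axis), for the 423 head-to-head members. Points between the solid line (plus-strand TSS) and the dashed line (minus-strand TSS) lie between the TSSs; near 250 bp the summits gather about the midpoint, and below 100 bp most fall outside, with 5 of 45 between the TSSs.

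By annotation, 284 member summits lay outside any protein-coding transcript (65%, 60.4% to 69.3%), against 43.9% of the one-directional promoter peaks. A further 89 member summits were in untranslated exons (20.4%), 62 in introns (14.2%) and 2 in coding exons, against 19.8%, 35.8% and 0.499% of one-directional promoter peaks. The 437 members lay at 416 distinct pairs of nearest genes, and 21 pairs had 2 members. At 29 members more than 2 genes had a TSS within 500 bp. The genes at members spanned a median of 2313 bp, against 2166 bp for all protein-coding genes. The median was 5841.5 bp for the 860 genes that had a promoter peak but no opposing neighbour within 1000 bp. For genes with such a neighbour and no member it was 2299 bp, close to that of the genes at members.

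Divergent-promoter peaks ranked above other promoter peaks. In the full list of each replicate, the median rank percentile (0 being the strongest peak) of divergent summits was 18, 21 and 24.7, against 37.1, 38 and 38.6 for one-directional summits. The difference was -16.7 ± 2.58 percentile points (SD, n = 3) and was negative in 3 of 3 replicates (exact sign-flip permutation p = 0.25, the smallest possible). Of the divergent summits of a full list, 43%, 38.3% and 33.3% were among the 4336 strongest, against 21.8%, 19.9% and 20.4% of one-directional summits. Over all summits of a full list the share was 14.5% in each replicate, so both promoter classes were above it. The full lists held 1174, 1419 and 1261 divergent summits. As divergent summits were also nearer to a TSS, the part of TSS distance in this difference was not tested.

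**Figure D4:**
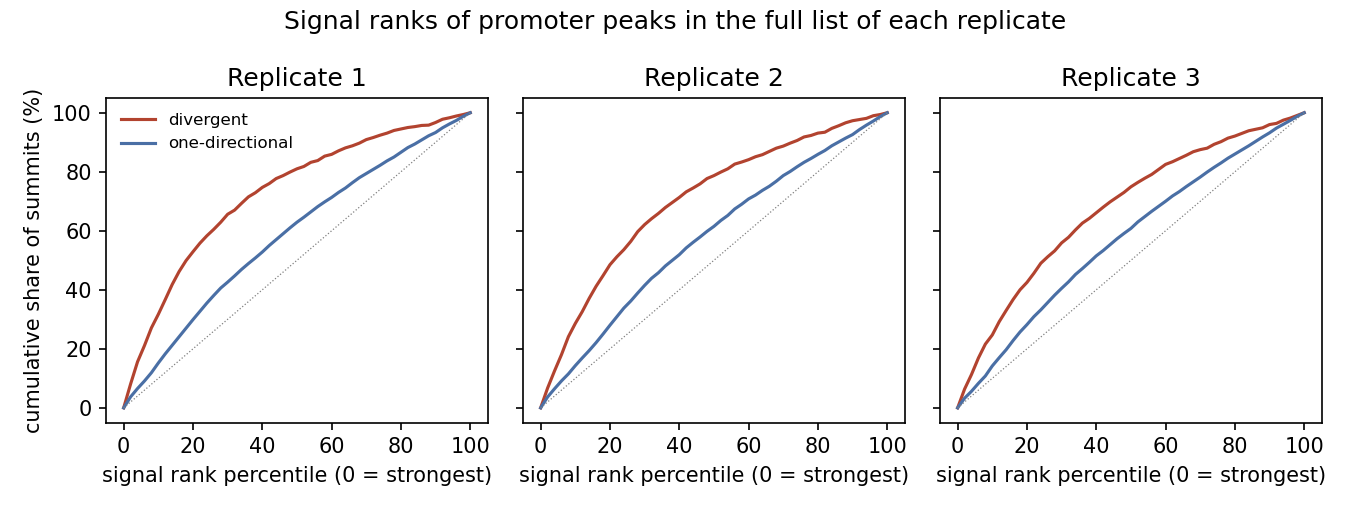
Cumulative share of summits (y axis, percent) by signal rank percentile in the full list of a replicate (x axis, 0 the strongest), for divergent and one-directional promoter summits, with 1 panel a replicate. A list spread evenly over the ranks would follow the dotted diagonal; the divergent curve lies above the one-directional curve in all 3 panels, with medians of 18, 21 and 24.7 against 37.1, 38 and 38.6.

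Inside the thresholded set the classes were closer. The median signal of members was 294.5 (quartiles 199.4 and 503.4), against 251.5 at one-directional promoter peaks and 240.7 at the remaining peaks. Members among the 867 strongest peaks, 20% of the set, numbered 123 (28.1%, Wilson 95% interval 24.1% to 32.5%), against 291 one-directional promoter peaks (24.2%, 21.9% to 26.7%). At the weak end the same number of peaks included 67 members (15.3%), against 20.8% of the one-directional promoter peaks.

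A member was counted as strong in every replicate when each replicate had one of its 4336 strongest summits within 200 bp. This was so for 218 of 437 members (49.9%, 45.2% to 54.6%), against 48.7% of the one-directional promoter peaks and 49.4% of all thresholded peaks, so members were level with the set in this measure. Because reproducibility between replicates helped to choose the thresholded set, these shares describe it and are no separate check of it. A summit among the strongest was found for 380, 381 and 274 members in replicates 1, 2 and 3. No summit at all was within 200 bp for 11, 8 and 53 members, so replicate 3 departed from the other 2, and without it the share strong in every replicate used was 77.8%. Over the members listed in both, Spearman's rho of the ranks was 0.825 for replicates 1 and 2 (418 members), 0.593 for replicates 1 and 3 (374) and 0.569 for replicates 2 and 3 (377). These describe peaks of shared libraries and carry no p. Strength and recurrence went together, which was largely set in advance, because the signal and the replicate ranks come from the same 3 replicates. Among the 145 strongest members 127 were strong in every replicate (87.6%), against 11 of the 145 weakest (7.59%).

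The strongest member lay at chr3R:15229367-15229708, between Art3, a protein arginine methyltransferase gene, and mRpS10, which encodes a small-subunit protein of the mitochondrial ribosome. It ranked 7 among all 4336 thresholded peaks, with a signal of 3126.9, and ranked 6, 6 and 8 in replicates 1, 2 and 3. The peak between CG11309 and CG7632 (chr3L:21304376-21304754) ranked 12, 12 and 6, and that between mRpS23, another mitochondrial small-subunit gene, and CenG1A, an Arf GTPase-activating protein gene (chr2L:13835300-13835628), ranked 11, 16 and 9. The peak of CG13390 and CG17294 ranked 13, 10 and 16. All 4 were thus among the 16 strongest of each replicate's 30000.

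The peak at Chro, a chromodomain protein of the interbands of polytene chromosomes, and Ssl1, a TFIIH subunit, ranked 32, 28 and 15. The peak of Pdrg1 and Pal1, a peptide-amidating lyase gene, ranked 30, 22 and 21. The peak of Tcs5, a kinase of the tRNA-modifying KEOPS complex, and CHMP2B, an ESCRT-III subunit of endosomal sorting, ranked 28, 32 and 18. The peak between eIF4EHP, a cap-binding repressor of translation, and CG18428, ranked 27, 14 and 107, lower in replicate 3.

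Ranks 44 to 108 of the thresholded set were taken by Fbw5 and CG9147, CG1275 and Elp5 (an Elongator subunit), Acbp1 and Piezo (a mechanosensitive channel), Mkk4 (a MAP kinase kinase) and SLIRP2, Cp190 (an insulator protein) and CG4338, Mnat9 and CG1792, mRpL23 and CG9004, Pax (paxillin, of focal adhesions) and Alp12, CG8372 and CG8360, tank and CG12194, and Stt3A (an oligosaccharyltransferase subunit) and bves among the 20 strongest members. In this group the least even peaks were that of Pax and Alp12, which ranked 105, 52 and 331, and that of Stt3A and bves, which ranked 79, 103 and 255. The most even was that of Fbw5 and CG9147, with ranks of 50, 49 and 46. The weakest of all members was at CG32814 and CG3021, with a signal of 153.7 and ranks of 6086, 5312 and 4986.

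In all, 70 members had no matching summit in at least 1 replicate. The 5 strongest of these were not confined to 1 replicate. The peak of Wdr37 and koko ranked 143 and 192 in replicates 1 and 2 and was absent from replicate 3 within 200 bp, although a second, weaker member at the same pair (signal 342.4, against 829.2) had a replicate 3 summit of rank 2295. U2af50, a splicing factor subunit, and PIG-Q ranked 429 and 356 and were also absent from replicate 3, as was the peak of CG2100 and CG1236, which ranked 545 and 595 in replicates 1 and 2. The peak of CG12093 and Atg2, a lipid-transfer protein gene of autophagy, was absent from replicate 1 and ranked 745 and 795 in replicates 2 and 3. The peak of CG11710 and mal was absent from replicate 2 and ranked 1171 and 768 in replicates 1 and 3.

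Near the limit of the rule, the last member inside it was the peak of CG6276 and CG44040. Its farther TSS was 496 bp from the summit, and its signal was 163.1. The first outside was a peak at Max and Mettl5, at 501 bp and with a signal of 186.4. That pair also had a stronger peak inside the rule, with a signal of 449.2.

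Genes with a TSS within 500 bp of a member numbered 859, or 6.16% of the protein-coding genes. Among genes with an opposing neighbour within 1000 bp the share was 16.7%. Of the 93 genes of cytoplasmic ribosomal proteins, 23 lay at a member (24.7%), and the strongest were RpL32 (signal 636.4), RpL34b (628.9) and RpS27 (612.7). RpL32 ranked 654, 398 and 445 in replicates 1, 2 and 3, RpL34b 751, 317 and 558, and RpS27 1049, 610 and 231. The median signal over the 23 was 371.9, against 294.5 over the genes at all members. A promoter peak of any kind was found at 56 of the 93 (60.2%, against 13.9% of all genes).

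Mitochondrial ribosomal protein genes differed in this last respect. Of 75, 17 lay at a member (22.7%) and 20 had a promoter peak of any kind (26.7%), and 59 had an opposing neighbour within 1000 bp (78.7%, against 36.9% of all genes). After mRpS10 and mRpS23, the strongest was mRpL23 (signal 1307.4, ranks 120, 95 and 84). Measured only over genes with such a neighbour, 41.1% of the cytoplasmic and 28.8% of the mitochondrial ribosomal protein genes lay at a member, against 16.7% of all genes with a neighbour. Of 88 genes of the respiratory chain and ATP synthase 8 lay at a member (9.09%), led by ND-ASHI and ND-MWFE of complex I and ATPsynCF6 of ATP synthase, with signals of 614.4, 416.8 and 277.3. Of 33 aminoacyl-tRNA synthetase genes 2 did, GluProRS (389.1) and CysRS-m (212.1), and of 48 proteasome genes 3 did, Rpn3 (384.4), Rpn5 (207.2, absent from replicate 1) and Prosbeta2 (201.3). These last lists, at 6.06% and 6.25%, were level with the 6.16% of all genes. Over genes with a neighbour they stood at 8.7% and 11.5%, below the 16.7% of all such genes. On that measure the respiratory chain and ATP synthase, at 17.4%, were near it.

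Among genes of transcription and RNA processing, 7 of 58 for RNA polymerases and general transcription factors lay at a member (12.1%, against 6.16% of all genes). Over those with an opposing neighbour the share was 17.9%, near the 16.7% of all such genes. Taf2 and Taf5, subunits of TFIID, ranked 167 and 208 in replicate 1, 159 and 296 in replicate 2, and 5468 and 1431 in replicate 3. Polr3E, a subunit of RNA polymerase III, had a signal of 680.7. Of 29 genes of Mediator, which links transcription factors to RNA polymerase II, 7 lay at a member (24.1%), led by MED30 (582.7), MED27 (299.9, absent from replicate 1) and MED31 (267.1, absent from replicate 3), and over those with a neighbour the share was 33.3%. Splicing factor genes numbered 6 of 32 (18.8%), led by U2af50 (604.1), snRNP-U1-C (451.8) and Prp18 (288.7, absent from replicate 3). Of 14 genes listed under tRNA and rRNA processing 3 lay at a member (21.4%), Tcs5 (2170.1), Rnmt (314.3) and Fib (201.7). Nuclear pore genes numbered 4 of 23 (17.4%), led by Nup37 (612.7), Nup133 (455) and Nup98-96 (177.6). Over genes with a neighbour, splicing stood at 21.4% and the nuclear pore at 20%, close to the 16.7% of all such genes.

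Chromatin regulator genes gave the highest median signal of the lists, 860.6 over 6 of 44 genes (13.6%), with values from 208 to 2223.4. That median depends on which genes were listed. Chromatin genes outside the list had weaker members, such as Ino80 (506.4) and HP1b (186.9). Chro and Cp190 led the listed genes, followed by brm, the ATPase of the Brahma remodelling complex, which ranked 171, 247 and 151 in the replicates. E(z), the methyltransferase of Polycomb repressive complex 2, had a signal of 704.8 and ranked 215 and 272 in replicates 1 and 2 but 24398 in replicate 3. Dref, whose product binds TATCGATA, shared a peak with RpL13 (signal 441.4). Autophagy genes numbered 5 of 20 (25%), led by Atg2 (504.4), Atg12 (404.2) and Atg17 (309.5). Vesicle transport genes numbered 8 of 90 (8.89%), led by Vps33B (841.4), Snap29 (387.9) and Rab3GAP1 (295.7). Of 51 genes listed under DNA replication and the cell cycle 4 lay at a member (7.84%), led by Cdk12 (479.9), Cdk1 (294.5) and aurB (195.2). Cdk1 and aurB were absent from replicate 3. Against 6.16% of all genes these shares were higher, but over genes with a neighbour vesicle transport stood at 14.8% and DNA replication and the cell cycle at 12.5%, below the 16.7% of all such genes, while chromatin regulators stood at 19.4% and autophagy at 31.2%.

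Lists of the nervous system and of other tissues held 0 to 2 genes at members each. Their shares ran from 0% to 11.8% (Notch pathway), against 6.16% of all genes. With 17 to 28 genes a list, a single gene changes such a share by several points. Of the 20 proneural and other bHLH genes in the list none lay at a member, nor did any of the 21 listed genes of neuronal differentiation and the synapse. Of 20 neuroblast genes 1 did, brat, through a weak peak shared with Polr1D (signal 156.3), which was absent from replicate 1 and ranked 16993 and 3170 in replicates 2 and 3. Of 28 axon guidance genes 1 did, trio (190), of 27 muscle and mesoderm genes 1, mbc (177.6), and of 17 Notch pathway genes 2, aph-1 (529), a gamma-secretase subunit, and O-fut1 (212.1). The lists do not hold every gene of their kind. The bHLH genes E(spl)mdelta-HLH (317.3) and Max (449.2), which are outside the list, lay at members. Few of the genes in these lists could be members. An opposing neighbour within 1000 bp was annotated for 3 of 20 bHLH genes, 3 of 21 neuronal genes and 1 of 20 neuroblast genes. Over genes with a neighbour, axon guidance stood at 20% (1 of 5) and the Notch pathway at 22.2% (2 of 9). Muscle and mesoderm stood at 14.3% (1 of 7), against 16.7% of all such genes. Promoter peaks of any kind were found at 3 of 20 bHLH, 2 of 21 neuronal and 1 of 20 neuroblast genes, but at 8 of 28 axon guidance (28.6%), 9 of 27 muscle and mesoderm (33.3%) and 7 of 17 Notch pathway genes (41.2%), against 13.9% of all genes. In total 108 of the 825 genes in the 20 lists lay at a member, and at no member were both genes of the nearest pair from the same list.

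Members were poor in G+C at the summit and rich around it. In the 100 bp about the summit the G+C content averaged 29.7% ± 9.2 (SD over 437 summits), against 34.4% ± 10.9 at one-directional promoter peaks, and 500 bp to either side it was 49.6% against 42.5%. In the replicates the summit values were 28.8%, 29.5% and 35.2% for divergent promoters, against 33.8%, 32.9% and 40.2% for one-directional promoters. The difference was -4.5 ± 0.929 percentage points (SD, n = 3) and negative in 3 of 3 replicates (exact sign-flip permutation p = 0.25). Replicate 3 was richer in G+C than the others in both classes. The 145 strongest members had 26.2% G+C at the summit, against 33.3% in the 145 weakest. At the midpoints of head-to-head pairs the G+C content was 30% for pairs with a thresholded peak, against 34.1% for pairs without.

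**Figure D5:**
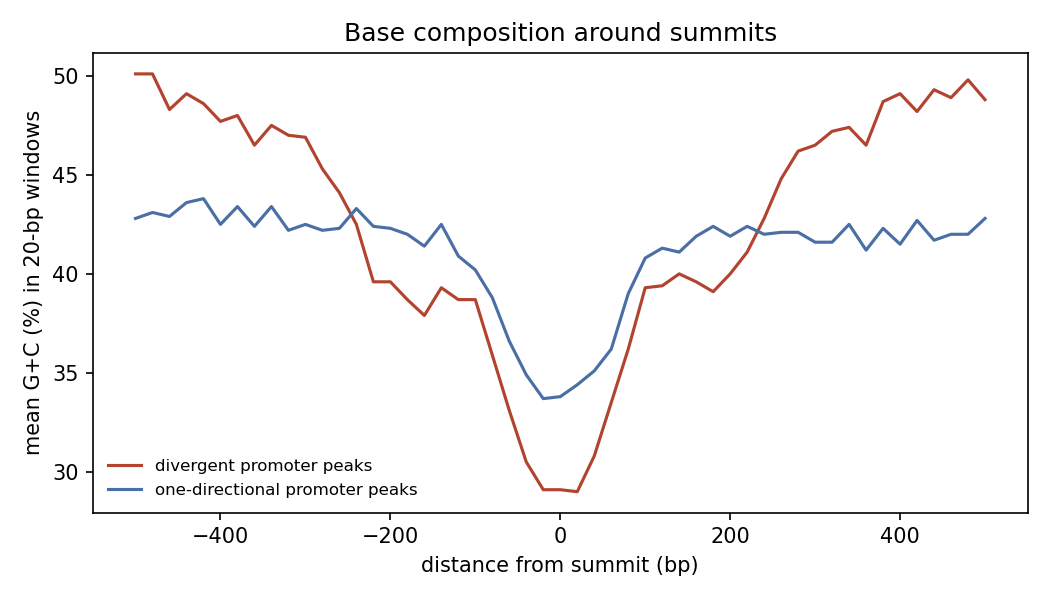
Mean G+C content in 20-bp windows (y axis, percent) by distance from the summit in bp (x axis), for the 437 divergent and the 1203 one-directional promoter peaks of the thresholded set. Divergent promoter peaks fall to 29.1% at the summit, against 33.8% at one-directional promoter peaks, and lie above them from 260 bp outwards.

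A set of 8 sequences was searched on both strands within 100 bp of the summit. The E-box CANNTG, the general site of bHLH factors, was present at 55.6% of members (Wilson 95% interval 50.9% to 60.2%), against 58.2% of one-directional promoter peaks and 63.7% of the promoters of all protein-coding genes in windows of the same length. Its form CAGCTG was at 10.5%, against 9.64% and 13.8%, and CATATG at 5.03%, against 6.98% and 3.93%. Both forms are also counted in CANNTG. In the replicates the difference between divergent and one-directional peaks was -1.77 ± 1.9 percentage points for CANNTG, 1.99 ± 0.636 for CAGCTG and -1.9 ± 0.848 for CATATG (SD, n = 3). The first was 1.41 points within 200 bp of the summit and the second -0.391 within 50 bp, so both changed sign with the width of the search. At the midpoints of head-to-head pairs, CANNTG was at 53.3% of pairs with a thresholded peak, against 58.8% of pairs without. CAGCTG was at 12.1%, against 12.8%, and CATATG at 5.21%, against 6.25%.

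The core CGATA was at 38.9% of members (34.4% to 43.6%), against 31% of one-directional promoter peaks (28.5% to 33.7%) and 39.4% of all promoters, so members were level with promoters at large. TATCGATA, which contains CGATA, was at 6.86%, against 3.74% and 7.84%. Among the 145 strongest members CGATA was at 29.7%, against 42.1% of the 145 weakest, and members with it had a median signal of 259.1, against 322.2 without. GGTCACACT, known as motif 1 and bound by M1BP, was at 4.12%, against 2.58% and 5.29%. At least 1 of these 3 was at 179 of the 437 members, and 170 of those held CGATA. The combined share at other peaks and at all promoters was not taken, so this count gives no contrast. Over the replicates the difference between divergent and one-directional peaks was 10.6 ± 1.98 points for CGATA and 5.21 ± 1.93 for TATCGATA. At the midpoints of head-to-head pairs, CGATA was at 40.3% of pairs with a thresholded peak, against 41.3% of pairs without. TATCGATA was at 8.77%, against 8.53%, so for both sequences pairs with and without a peak were level. GGTCACACT was at 2.37%, against 4.74%. Within 50 bp of the summit the differences from one-directional peaks were 2.05 ± 3.42 points for CGATA and 1.39 ± 1.44 for TATCGATA. Both values were below those of the wider search. For CGATA the exact sign-flip permutation p was then 0.5, so the replicates did not share 1 sign.

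TATAAA, the form of the TATA box, was at 47.6% of members, against 37.3% of one-directional promoter peaks and 29.2% of all promoters, and its difference over the replicates was 10.7 ± 2.49 points. It contains no G or C, and members with it had 26.3% G+C at the summit, against 32.8% for those without. At the midpoints of head-to-head pairs, TATAAA was at 46.2% of pairs with a thresholded peak, against 38.7% of pairs without. GAGAGA, bound by the GAGA factor, ran the other way. It was at 17 members (3.89%, 2.44% to 6.14%), against 13.4% of one-directional promoter peaks (11.6% to 15.4%) and 8.37% of all promoters, and its difference over the replicates was -10.5 ± 1.78 points. At the midpoints of head-to-head pairs, GAGAGA was at 4.74% of pairs with a thresholded peak, against 5.43% of pairs without. Within 50 bp of the summit its difference was -4.35 points, and within 200 bp -22.7 points. For all 8 sequences within 100 bp of the summit, the exact two-sided sign-flip permutation test over 3 replicates gave p = 0.25. After Benjamini-Hochberg adjustment over the 8 it was 0.25. The share with a sequence depends on base composition, and its part in these differences was not tested.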

How the data were processed

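Peak lists of 3 biological replicates, of the pooled replicates and of the thresholded set were used as the authors deposited them. The labels give the assembly as dm6. The deposited notes say that each replicate list came from 1 replicate and 1 control alignment, and the thresholded set from the replicate lists by the irreproducible discovery rate. For the aligner, caller and cut-off, names and versions were not given in the sources used here. Each peak carries a signal value and a −log10 q-value as the authors deposited them. Because the scale of the signal differs between lists, ranks were compared instead, and the q-values served as an alternative ranking. The summit is the start plus the offset in the last column.

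TSSs of all protein-coding transcripts came from Ensembl release 115 on the main arms and sequence from RefSeq for that assembly. For each member the opposing TSSs nearest to the summit define its gene pair. Replicate summits within 200 bp were matched. The RefSeq promoter table was not used here, so promoter shares of motifs are for windows of 100 bp either side of the furthest-upstream TSS of 13945 genes. Over replicates, the 4336 strongest peaks of each were taken, and differences (log2 ratios for density) were tested with an exact two-sided sign-flip permutation. Wilson 95% intervals cover the sampling of peaks only. Python 3.11.15, numpy 2.4.6, scipy 1.17.1 and pandas 2.3.3 were used, and the functions were tested on simulated data.

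The members, the 20 gene lists and the tests were chosen with earlier results of these data known. The lists were built from gene symbols and symbol patterns, so a list name may not describe every gene in it. Of the list symbols, 8 were not matched in the annotation. Named are the pairs of the 20 strongest members, up to 3 genes per list with the strongest peaks, the weakest member, the 5 strongest absent from a replicate, and those at the limit, while 1 of these pairs is not reported here. Alternatives varied the TSS window, the TSS set, the number of peaks, the ranking, the matching distance and the search width, and left out each replicate.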

Additional observations from a re-analysis of the deposited data

How the results depend on the processing

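The density ratio, the rank difference and the difference in genes with a promoter peak kept the direction of their replicate mean under every alternative run. So did the G+C difference and 6 of the 8 motif differences. Within 50 bp of the summit single replicates differed in sign for CGATA (exact sign-flip permutation p = 0.5) and GGTCACACT (p = 0.75). No alternative could bring a test past 0.05. CANNTG reversed to 1.41 percentage points within 200 bp of the summit, and CAGCTG to -0.391 within 50 bp. The divergent share of the thresholded set was 4.89% with a TSS window of 200 bp, 13.9% with 1000 bp and 11.9% among the strongest 2168 peaks, and the replicate mean was 5.43%, 15.6% and 12.9%. Without each replicate in turn it was 10.7% to 12.1%. The density ratio was 4.76 at 200 bp, 2.34 at 1000 bp, 2.86 within 100 bp of a TSS, and 3 to 3.5 without 1 replicate. Members strong in every replicate were 44.9% with summits within 100 bp, and 54.5% to 77.8% without 1 replicate, highest without replicate 3. Summits of the strongest members lay between the TSSs in 87.3% of cases. Genes of the 20 lists at members numbered 65 with the strongest 2168 peaks. The difference in genes with a promoter peak was 8.46 points with the strongest 2168 peaks. Within 200 bp of the summit the motif differences were 15.9 points for CGATA, 14.1 for TATCGATA, 12.5 for CAGCTG and 6.06 for GGTCACACT, which was 0.0178 within 50 bp. No paired analysis was possible because there was 1 group, so no block between groups of samples; the differences between classes of sites were taken within each replicate. Depth is unknown and limits every absent call.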
